A study of Mus musculus with 12 samples.

Results

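The mature arms of the miR-292 and miR-293 precursors were described in mouse embryonic stem cells (ESC) and round spermatids. They are 6 of the 1549 features in the count table: mmu-miR-292a-5p, mmu-miR-292a-3p, mmu-miR-292b-5p, mmu-miR-292b-3p, mmu-miR-293-5p and mmu-miR-293-3p, written without the species prefix from here on. They were chosen by name as both arms of miR-292a, of miR-293 and of miR-292b, whose precursor lies on the strand opposite miR-292a. The rule used no measured value, but earlier results of these data were known when the members were chosen.

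The study sequenced small RNA from 12 libraries in 5 groups. Androgenetic haploid ESC, which hold a single chromosome set of paternal origin, were sampled from 3 lines, with 2 libraries of A129-2, 3 of A129-6 and 2 of A129-17. The diploid ESC line R1 gave 2 libraries. Round spermatids (RS), which are the postmeiotic haploid cells of the testis, gave 3. Every library was labelled wild type, with sorting as its treatment. The haploid ESC were grown with LIF and the kinase inhibitors PD0325901 and CHIR99021 and were re-enriched for haploid cells by Hoechst staining and sorting. The sources used here gave no separate medium for R1. Spermatids were sorted by Hoechst from testes of 129Sv males whose age and number were not given. There was only 1 diploid line, so a difference from R1 cannot be told apart from a trait of that line. Nothing says that replicates were separate cultures or animals, and SDs and p-values then describe only the spread of these samples, possibly a technical one.

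A miRNA precursor is a hairpin from which the enzyme Dicer cuts a duplex, with 1 strand from the 5′ side (the 5p arm) and 1 from the 3′ side (the 3p arm). Usually 1 strand is loaded into an Argonaute protein and the other, the passenger, is lost. Loaded miRNAs find target RNAs mainly through the seed, bases 2 to 8 from the 5′ end. The miR-290 cluster is highly expressed in mouse pluripotent cells. Its plus-strand hairpins are transcribed as a unit, so that arms of different abundance can come from 1 primary transcript. Mir290b and Mir292b, whose arms are counted with the cluster here, lie on the minus strand and are not part of that transcript.

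Mature sequences from RefSeq (build GRCm38.p6) were found for 5 of the 6 arms, and none is printed for miR-292a-3p. The sequences are shown because miR-292a-5p and miR-293-5p, from different hairpins, share a seed, while miR-292b-3p and miR-293-3p have seeds of their own. The seed of miR-292a-3p, also an abundant 3p arm, was not compared. Each is written 5′ to 3′ with the seed in capitals.
miR-292a-5p: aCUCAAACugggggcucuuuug
miR-293-5p: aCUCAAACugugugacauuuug
miR-292b-5p: aCUCAAAAccuggcggcacuuuu
miR-292b-3p: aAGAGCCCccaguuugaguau
miR-293-3p: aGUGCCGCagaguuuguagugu
miR-292a-5p and miR-293-5p share the seed CUCAAAC and their first 10 bases. Over 22 bases they differ by 5 substitutions, G11U, G13U, C15A, U16C and C17A, with the miR-292a-5p base first and positions counted from the 5′ end. Among all table features with a sequence, only miR-290a-5p has the same seed. The seed of miR-292b-5p, CUCAAAA, is shared with miR-294-5p. The seeds of miR-292b-3p and miR-293-3p were each found in no other feature with a sequence.

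All 3 hairpins lie on mouse chromosome 7 (GRCm38.p6). Mir292, which gives the miR-292a arms, spans chr7:3219189-3219270 on the plus strand, Mir292b spans chr7:3219198-3219259 on the minus strand, and Mir293 spans chr7:3220343-3220422 on the plus strand. In the GENCODE annotation of the same build they fall within the 3′ UTR in the last exon of Nlrp12, a minus-strand gene of the NOD-like receptor family, in the same direction for Mir292b and opposite to it for the others. miR-292a-5p (chr7:3219200-3219221) and miR-292b-3p (chr7:3219198-3219218) overlap by 19 bases on opposite strands and are reverse complements over those 19 bases. The sources used here do not say how the counting treated strand or reads with several matches, and the split between miR-292a and miR-292b arms is uncertain.

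The ESC libraries held 3709786 to 9176080 counts and the spermatid libraries 155232 to 243714. At this depth the exact 95% (Clopper-Pearson) interval of a library share was at most 0.0488 percentage points to either side in the ESC libraries. Intervals and detection floors cover counting error only, since PCR copies were not told apart. A129-6 replicate 3 stood apart from its group in the proportions of the 18 cluster arms. They differed by 16.9 percentage points (absolute differences summed over the arms, divided by 2) from the mean of the other A129-6 libraries. From the mean of A129-17 they differed by 3.11. Replicates 1 and 2 differed by 2.28 in A129-6, 6.66 in A129-2 and 5.68 in A129-17. A129-6 replicate 3 is called by its label here, but the counts do not settle whether the line label is right. Results for A129-6 and between lines are given with and without it. RS replicate 2 held 1052 counts of the cluster against 24 and 72 in RS replicates 1 and 3. The libraries labelled RS had 28.7% to 38.7% of counts in 6 spermatid markers, which took 0.278% to 1.16% in the haploid and 0.121% and 0.114% in the R1 libraries, without overlap. The part of this in the differences between haploid lines and R1 was not tested. The RS libraries had 0 to 0.00193% in the ESC markers of the miR-302/367 cluster. In RS at most 2 of these 5 markers had a count. They were at 0.0501% to 0.177% in the haploid libraries and at 0.181% in both R1 libraries. The 5 mesenchymal and feeder cell markers took 1.40% to 6.63% in RS and 0.586% to 2.68% in ESC libraries.

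The 6 arms together took most of the cluster and a large part of each ESC library. They made up 42.6% and 44.2% of all counts in R1, compared with 59.7% and 69.6% for the A129-2 libraries, 65.6%, 63.5% and 74.3% for A129-6, and 74.0% and 70.9% for A129-17. Every haploid library was above both R1 libraries. The whole miR-290 cluster took 64.1% to 77.1% in the haploid libraries, with 92.5% to 96.3% of its counts in the 6 arms, and 49.1% and 50.2% in R1, with 86.8% and 88.1% in the 6 arms. As shares of a fixed total, these percentages move against all other miRNAs, and in bulk samples fewer cells of a type and less RNA per cell cannot be told apart.

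**Figure D1:**
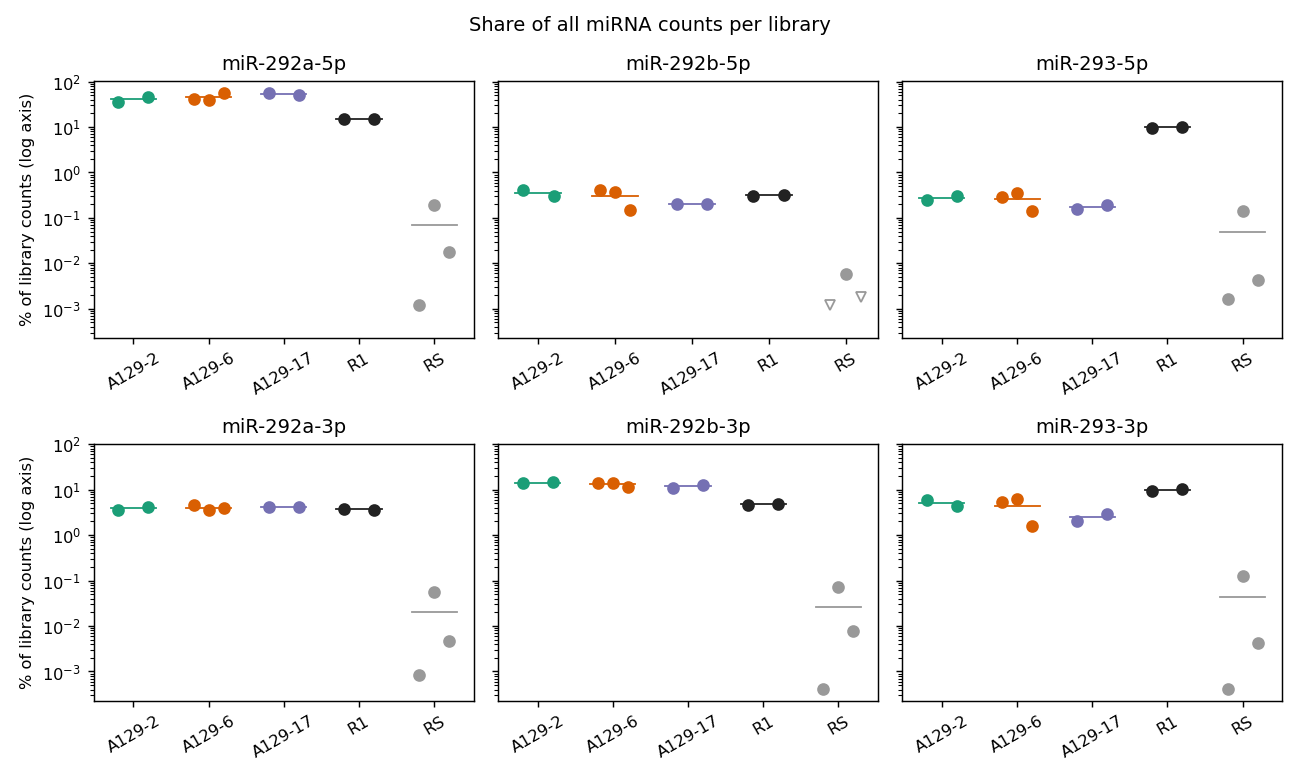
Share of all miRNA counts taken by each of the 6 arms, in percent on a log axis, with 1 point per library, a bar at the mean of a group, and open triangles at the 3-count floor where a library had 0 counts. miR-293-5p lies at 9.65% and 10.1% in R1 and at 0.143% to 0.358% in the haploid libraries, while miR-292a-3p lies between 3.60% and 4.61% in all ESC libraries.

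How the haploid lines differed from R1 in these arms was examined first. miR-292a-5p and miR-292b-3p rose, miR-293-5p and miR-293-3p fell, and miR-292a-3p and miR-292b-5p did not pass the test (edgeR's quasi-likelihood test with Benjamini-Hochberg adjustment over 757 features, threshold 0.05). In this comparison 70.5% of all tested features passed, 35.3% higher and 35.3% lower, so 4 of 6 called is near the background. All 6 arms passed the filter on low counts. The same 4 arms passed in the same direction in A129-2, where 59.8% of features passed, in A129-6 (67.1%) and in A129-17 (66.2%). The 3 line contrasts share the R1 libraries, and the line calls lost under another setting are given with each arm. Without A129-6 replicate 3 the A129-6 calls were kept, at log2 1.32 for miR-292a-5p, 1.46 for miR-292b-3p, -5.02 for miR-293-5p and -0.83 for miR-293-3p.

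miR-293-5p showed the largest difference of the 6. It took 9.65% and 10.1% in R1, compared with 0.244% and 0.309% for the A129-2 libraries, 0.292%, 0.358% and 0.143% for A129-6 and 0.155% and 0.192% for A129-17. The groups did not overlap, and the highest haploid library was far below the lower R1 library. Among all features of a library it ranked 2nd and 3rd in R1 and 32nd to 45th in the haploid libraries. Normalised to the TMM-scaled library size it reached 91442 ± 92.4 CPM (counts scaled to a common library size) in R1 (SD, n = 2) and 2374 ± 265 in the haploid lines (SD of 3 line means). It was 38.7-fold lower in the haploid lines (log2 -5.27, SE 0.24, edgeR adjusted p = 8.54e-11). Line by line the log2 difference from R1 was -5.20 for A129-2, -5.16 for A129-6 and -5.46 for A129-17.

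miR-293-3p, from the other side of the same hairpin, fell less. It took 9.45% and 10.1% in R1, compared with 5.98% and 4.43% for the A129-2 libraries, 5.34%, 6.38% and 1.61% for A129-6 and 2.03% and 2.99% for A129-17. All haploid libraries were below R1, with A129-6 replicate 3 and A129-17 the lowest. It was 2.38-fold lower in the haploid lines (log2 -1.25, SE 0.27, edgeR adjusted p = 0.000684). In A129-2 alone (log2 -1.02, edgeR adjusted p = 0.0241) the call was lost without A129-2 replicate 1 (0.0805) or R1 replicate 1 (0.0697) or 2 (0.0832), with upper-quartile (0.0657) or total-count scaling (0.0720), and with a minimum count of 100 (0.150). That minimum also ended the A129-6 call (edgeR adjusted p = 0.0553). When the spermatid libraries were also fitted, the difference of the haploid lines from R1 was -0.40 on the log2 scale and the call was lost (edgeR adjusted p = 0.712), as it was in A129-2 (0.893), A129-6 (0.827) and A129-17 (0.570). That fit raised the median difference of the shared features by 0.85 on the log2 scale, and 66.0% of its calls were higher, against 50.0% in the fit of the ESC libraries.

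miR-292a-5p was the most abundant feature in all 9 ESC libraries. It took 14.8% and 15.1% in R1, compared with 35.6% and 45.8% for the A129-2 libraries, 40.7%, 38.9% and 56.9% for A129-6 and 56.5% and 50.7% for A129-17. The groups did not overlap, and A129-6 replicate 3 was as high as A129-17 replicate 1. Its level in the haploid lines was 3.56-fold that of R1 (log2 1.83, SE 0.39, edgeR adjusted p = 0.000688), with line values of 1.41, 1.86 and 2.23 in A129-2, A129-6 and A129-17. The A129-2 call was lost without A129-2 replicate 2 (adjusted p = 0.158), without R1 replicate 2 (adjusted p = 0.0569) and with the spermatid libraries in the fit (adjusted p = 0.110).

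miR-292b-3p, the antisense partner of miR-292a-5p, ranked 2nd in every haploid library and 7th and 5th in R1. Its shares were 4.69% and 4.94% in R1, compared with 13.8% and 14.5% for the A129-2 libraries, 14.3%, 13.8% and 11.5% for A129-6 and 11.0% and 12.7% for A129-17. The groups did not overlap. Its level in the haploid lines was 3.01-fold that of R1 (log2 1.59, SE 0.27, edgeR adjusted p = 0.000104), and the line values ran from 1.49 in A129-2 to 1.67 in A129-17. With the spermatid libraries in the fit the A129-2 call was lost (adjusted p = 0.0539).

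The 2 remaining arms overlapped between haploid and R1 libraries. miR-292a-3p took 3.75% and 3.60% in R1, compared with 3.64% and 4.25% for the A129-2 libraries, 4.61%, 3.66% and 3.89% for A129-6 and 4.13% for both A129-17 libraries. Its difference was 0.31 on the log2 scale (SE 0.28, edgeR adjusted p = 0.328), and it passed with a minimum count of 100 (0.71, adjusted p = 0.0392). In A129-17 alone it passed with that minimum (0.95, adjusted p = 0.0249) and with upper-quartile scaling (0.93, adjusted p = 0.0361). miR-292b-5p took 0.306% and 0.327% in R1, compared with 0.406% and 0.304% for the A129-2 libraries, 0.411%, 0.365% and 0.152% for A129-6 and 0.199% and 0.205% for A129-17. Its difference was -0.06 (SE 0.23, edgeR adjusted p = 0.830), and the sign turned with upper-quartile scaling (0.25), with the spermatid libraries fitted too (0.79) and with a GC term (0.49). For 4 of the 6 arms the library shares did not overlap between haploid and R1 libraries, where 66.1% of features did not. The exact two-sided permutation test of 7 haploid against 2 R1 libraries cannot go below p = 0.0556. It gave that value for those 4 arms (0.0754 after Benjamini-Hochberg adjustment over 19 such values), 0.222 for miR-292a-3p and 0.722 for miR-292b-5p.

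The other 12 arms of the cluster, all tested, moved in both directions: 2 rose, 6 fell and 4 did not pass. Their median log2 difference was -0.60, against 0.12 for the 6 arms and 0.33 for all 757 features. The 3 with the highest mean level over the 9 ESC libraries were miR-294-3p (log2 -0.47, SE 0.22, edgeR adjusted p = 0.0694), miR-295-3p (-0.99, SE 0.27, adjusted p = 0.00432) and miR-291a-5p (1.57, SE 0.28, adjusted p = 0.000136). In R1 alone miR-291a-3p ranked above miR-291a-5p. It took 0.988% and 0.989% of counts there and 0.149% to 0.292% in the haploid libraries, without overlap (log2 -1.99, SE 0.19, edgeR adjusted p = 2.40e-07), and is named after its values were seen. miR-291a-3p, miR-294-3p and miR-295-3p carry the AAGUGCU seed for which the cluster is best known in cell cycle control. The median of all features was moved by the scaling, by -0.25 with RLE, 0.31 with upper-quartile, -0.13 with total-count scaling and -0.11 with TMM factors taken outside the cluster.

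Base composition moved with the differences. Across 360 features with a sequence and a mean log2 CPM above 3, the log2 difference of haploid lines against R1 rose with the GC content of the mature sequence (Spearman's rho 0.502, Pearson's r 0.491, a description across features, which are not independent). miR-293-5p has a GC content of 36.4%, miR-292a-5p and miR-293-3p 50.0%, miR-292b-5p 47.8% and miR-292b-3p 47.6%. With a GC term fitted per library, the miR-293-5p difference was -3.24 in place of -5.27 on the log2 scale and still passed (edgeR adjusted p = 1.74e-08), and miR-293-3p was at -1.08, miR-292a-5p at 2.01 and miR-292b-3p at 2.18. Any further part of base composition in these differences was not tested.

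The make-up of the cluster itself was then compared, with each arm as a share of the 18 cluster arms. In R1 miR-292a-5p led, with 30.1% of the cluster in both libraries. Next came miR-293-5p with 19.7% and 20.1% and miR-293-3p with 19.2% and 20.2%, and then miR-292b-3p with 9.55% and 9.84%. In the haploid libraries miR-292a-5p alone took 55.5% to 73.8% and miR-292b-3p 14.3% to 21.5%. There miR-293-3p took 2.09% to 9.33% and miR-293-5p 0.186% to 0.522%. The other 2 arms were below 8% of the cluster in all ESC libraries: miR-292a-3p took 5.05% to 6.50% in haploid libraries and 7.64% and 7.17% in R1, and miR-292b-5p took 0.197% to 0.634% and 0.622% and 0.651%.

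**Figure D2:**
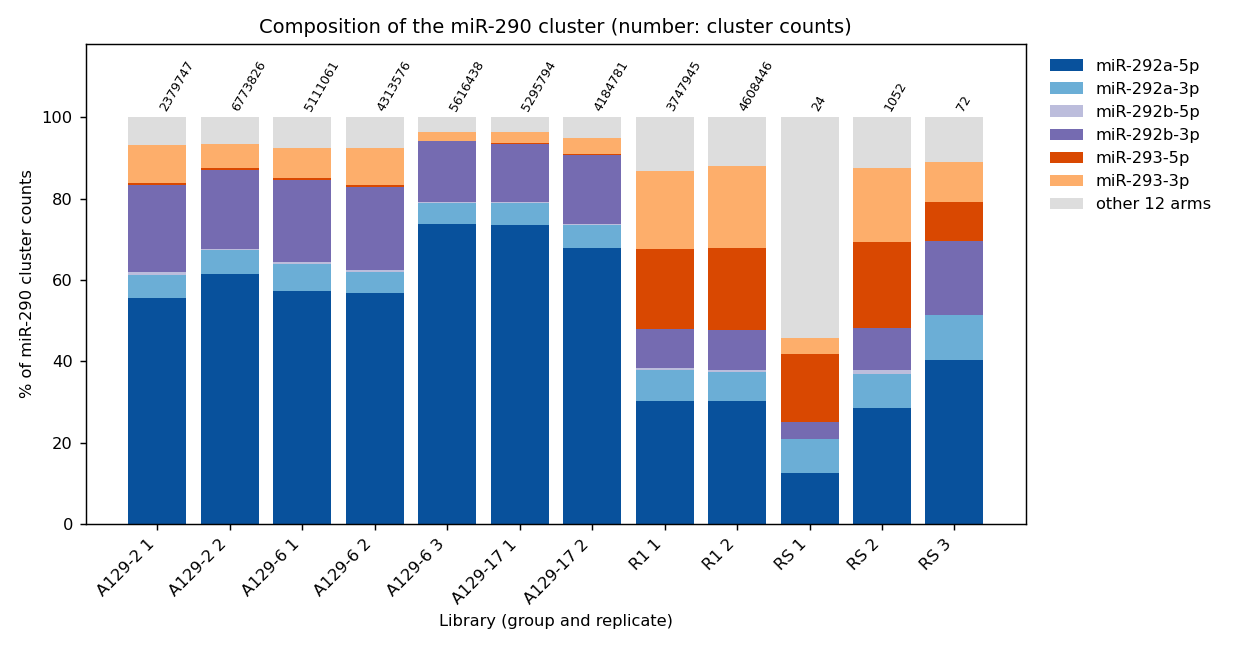
Composition of the miR-290 cluster in each library, as stacked percentages of the counts of its 18 arms, with the number of cluster counts above each bar. The R1 bars hold 19.7% and 20.1% of miR-293-5p, which is below 0.6% in every haploid bar, and A129-6 replicate 3 resembles the A129-17 bars. The RS bars rest on 24, 1052 and 72 counts.

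With the cluster total as library size, 62.0% of features passed edgeR's test. miR-293-5p was 61.4-fold lower within the cluster (log2 -5.94, SE 0.29, adjusted p = 1.28e-14). For miR-293-3p it was 3.63-fold lower (-1.86, SE 0.32, adjusted p = 2.00e-05). miR-292a-5p was 2.12-fold higher (1.08, SE 0.22, adjusted p = 0.000145). miR-292b-3p was 1.86-fold higher (0.90, SE 0.25, adjusted p = 0.00309), a call that was lost without R1 replicate 1 (adjusted p = 0.0629) or R1 replicate 2 (0.0516). miR-292a-3p (-0.40, adjusted p = 0.162) and miR-292b-5p (-0.70, adjusted p = 0.0945) did not pass. miR-292b-5p did so without A129-6 replicate 3 (-0.58, adjusted p = 0.0346). Relative to the cluster, the libraries did not overlap for 5 of the 6 arms, against 63.7% of features.

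Arms that share a seed could be added up from these shares. The CUCAAAC seed, of miR-292a-5p, miR-293-5p and miR-290a-5p, made up 24.5% and 25.3% in R1, compared with 35.9% and 46.2% for the A129-2 libraries, 41.0%, 39.3% and 57.1% for A129-6 and 56.7% and 50.9% for A129-17. The summed seed was thus higher in every haploid library, although miR-293-5p was lower. Within the seed group miR-293-5p gave 39.3% and 39.9% of counts in R1 and 0.251% to 0.911% in the haploid libraries, where miR-292a-5p gave 98.9% to 99.7%. miR-290a-5p gave at most 0.339% in any ESC library.

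Arm use within a hairpin does not depend on library scaling. It differed for all 3 hairpins by limma's test, in which 53.2% of 263 hairpins passed, and did not overlap between haploid and R1 libraries, as for 54.8% of hairpins. In R1 the arms of miR-293 were equally abundant, with 5p to 3p count ratios of 1.02 and 0.998. The ratio was 0.0407 and 0.0698 for A129-2, 0.0547, 0.0562 and 0.0889 for A129-6, and 0.0764 and 0.0642 for A129-17. Each haploid library thus had far more counts of miR-293-3p than of miR-293-5p, whose share of the hairpin was at most 8.17%. The difference in log2 ratio was -4.02 (SE 0.29, limma adjusted p = 3.41e-05, over 263 hairpins with at least 10 counts in every ESC library, pseudocount 0.5).

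miR-292a used its 5p arm more in the haploid lines. Its 5p to 3p ratio was 3.94 and 4.20 in R1, compared with 9.79 and 10.8 for the A129-2 libraries, 8.81, 10.6 and 14.6 for A129-6 and 13.7 and 12.3 for A129-17, so that the groups did not overlap (log2 difference 1.48, SE 0.21, limma adjusted p = 0.000831). miR-292b used its 3p arm more. Its 5p to 3p ratio was 0.0652 and 0.0662 in R1, compared with 0.0294 and 0.0211 for the A129-2 libraries, 0.0288, 0.0264 and 0.0132 for A129-6 and 0.0181 and 0.0162 for A129-17, again without overlap (-1.65, SE 0.32, limma adjusted p = 0.00339). Line by line, each of the 3 hairpins passed in each haploid line (limma, 30.4% of hairpins called in A129-2, 48.7% in A129-6 and 45.2% in A129-17). The miR-292b call was lost without R1 replicate 1 or 2 in A129-2 (adjusted p = 0.132 and 0.123) and in A129-6 (0.0646 and 0.0591), and in A129-2 also without A129-2 replicate 1 or 2 (0.0628 and 0.129), with no minimum count (0.0701) and with no trend in the variance (0.0707). Without A129-6 replicate 3 the A129-6 differences were 1.25 for miR-292a, -1.25 for miR-292b and -4.19 for miR-293, and each call was kept. The miR-292a call in A129-2 was lost without R1 replicate 1 or 2 (0.0736 and 0.0522).

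**Figure D3:**
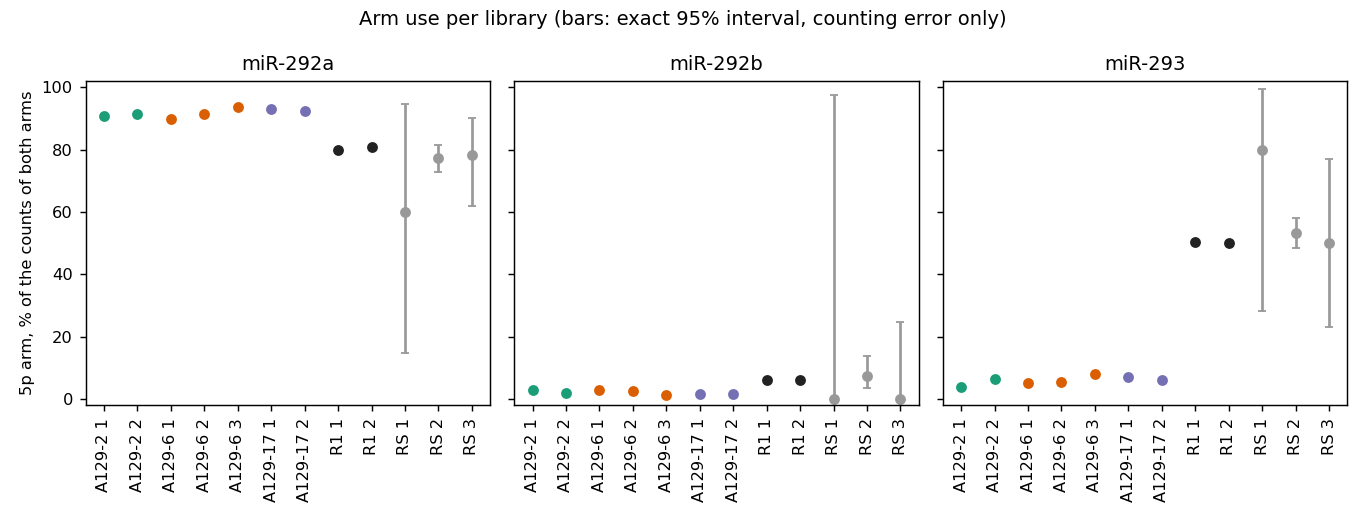
Counts of the 5p arm as a percentage of both arms of a hairpin, for each library, with exact 95% intervals that cover counting error only and are smaller than the points in the ESC libraries. The miR-293 5p arm is at 50.5% and 50.0% in R1 and at 3.91% to 8.17% in the haploid libraries, and the RS intervals are wide, except in replicate 2.

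Differences in arm ratio were frequent among these libraries. Of the 263 hairpins 140 passed, and the median size of the difference was 1.67 on the log2 scale. By size, miR-293 ranked 35th, miR-292b 133rd and miR-292a 146th of 263. Among the other cluster hairpins, miR-291b (8.41), miR-291a (3.54) and miR-290a (1.15) used the 5p arm more in the haploid lines. The size for miR-291b depends on the pseudocount, since miR-291b-3p had 1 count in all haploid libraries together and 26 and 39 in R1. miR-294 (-0.96) used the 5p arm less, while miR-290b (0.14, limma adjusted p = 0.795) and miR-295 (0.26, limma adjusted p = 0.540) did not pass. Over 204 hairpins with sequences the difference in arm ratio moved with the difference in GC content between the arms (Spearman's rho 0.473, a description across hairpins). The GC content of the miR-293 5p arm is 13.6 percentage points below that of its 3p arm, and the miR-292b arms differ by 0.207. When the GC difference of the arms was fitted per library, an alternative chosen after seeing the data, the miR-293 difference was -2.65 (limma adjusted p = 0.000230) and that of miR-292b -1.80 (0.00352).

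**Figure D4:**
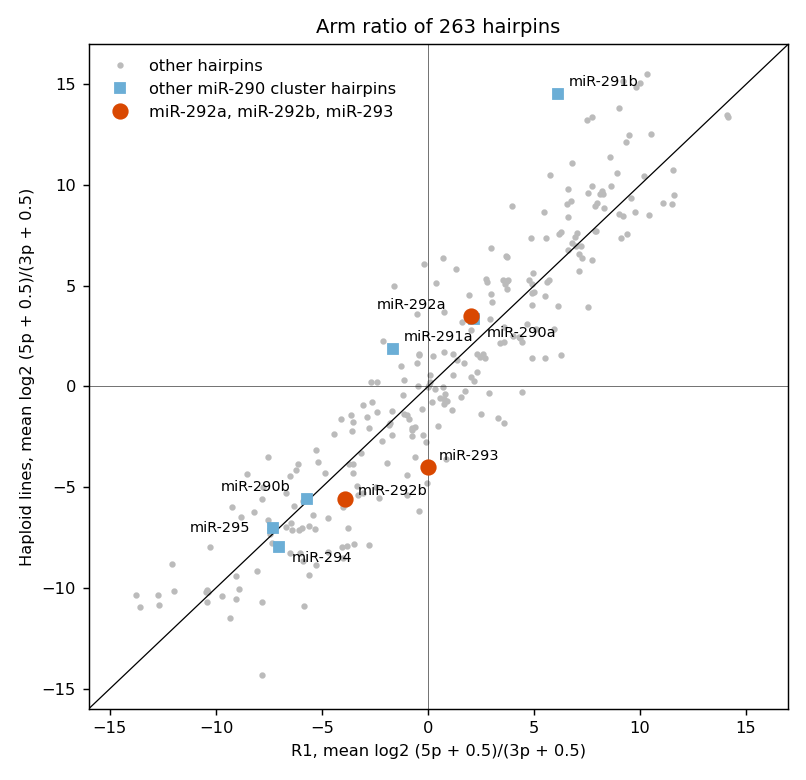
Mean log2 ratio of the 5p to the 3p arm in R1 (horizontal) and in the haploid lines (vertical) for 263 hairpins, with the diagonal marking equal ratios. miR-293 lies 4.02 below the diagonal, miR-292b 1.65 below and miR-292a 1.48 above it, among many other hairpins that leave the diagonal.

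The antisense arms were set against the sense arms that lie opposite them. In ESC the ratio of miR-292b-3p to miR-292a-5p was 0.317 and 0.326 in R1, compared with 0.387 and 0.316 for the A129-2 libraries, 0.351, 0.356 and 0.203 for A129-6 and 0.194 and 0.250 for A129-17. The R1 values fell within the haploid range (exact permutation p = 0.722). The ratio of miR-292b-5p to miR-292a-3p was 0.0391 to 0.112 in the haploid libraries and 0.0815 and 0.0909 in R1 (exact permutation p = 0.556). Both ratios were lowest in A129-17 and A129-6 replicate 3. For miR-290b-3p and miR-290a-5p, another overlapping pair of the cluster, the ratio was 0.798 to 0.956 in all 9 libraries. The ratio of miR-290b-5p to miR-290a-3p, by contrast, did not overlap between the groups. It was 0.106 to 0.234 in the haploid libraries and 0.0823 and 0.0685 in R1, from 33 to 120 counts of miR-290b-5p per library.

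**Figure D5:**
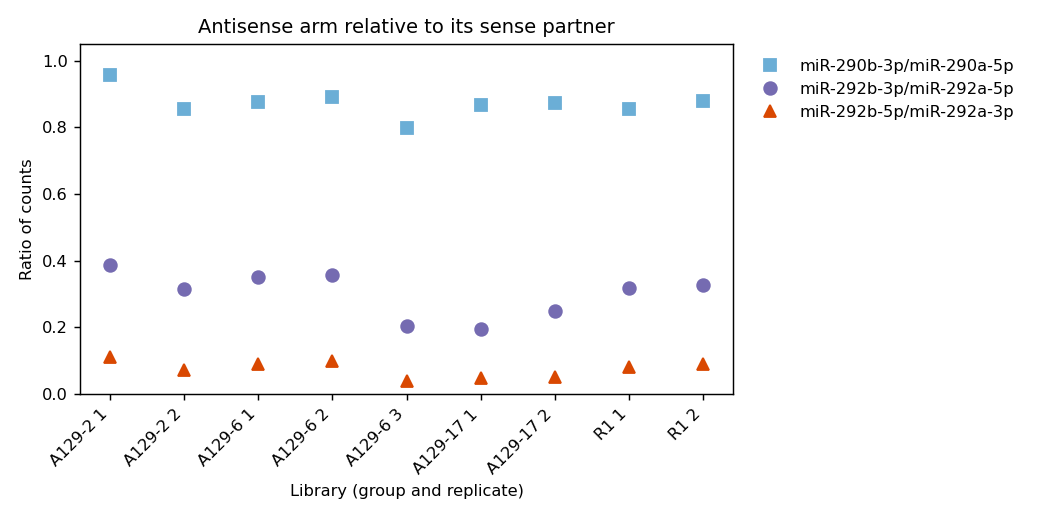
Ratio of the counts of an antisense arm to those of the sense arm opposite it, by ESC library, on a linear axis from 0. The miR-292b-3p ratio is 0.194 to 0.250 in A129-17 and A129-6 replicate 3 and 0.316 to 0.387 in the other 6 libraries, while the miR-290b-3p ratio stays between 0.798 and 0.956.

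Among the haploid lines none of the 6 arms passed the test over the 3 lines, in which 3.83% of features did (29 of 757 by edgeR, with adjusted p from 0.418 to 0.917 for the arms). None of the 6 had an unadjusted p under 0.05, against 174 of all features, and DESeq2 called 85 features and none of the 6. Without A129-6 replicate 3 edgeR called 80 features, again none of the 6, and 227 of 749 features had an unadjusted p under 0.05. Among those 227 were miR-292a-5p (unadjusted p = 0.00920, edgeR adjusted p = 0.0638) and miR-293-3p (unadjusted p = 0.0234, edgeR adjusted p = 0.109). Within the cluster edgeR called 0 features between lines, with 145 at an unadjusted p under 0.05, among them miR-293-3p (unadjusted p = 0.0349, edgeR adjusted p = 0.249). A129-6 replicate 3 was singled out by its proportions of these same cluster arms, so leaving it out is not an independent check. Without it edgeR called 155 of 749 features, including miR-293-3p (adjusted p = 0.00956), miR-293-5p (0.0201) and miR-292b-5p (0.0355). In that fit their cluster shares in A129-17 were lower than in A129-2 by 1.20, 0.79 and 0.97 on the log2 scale (log2 -1.20, -0.79 and -0.97). For arm ratios limma called 0 of 263 hairpins between lines, with 47 at an unadjusted p under 0.05 and none of the 3 hairpins here among them. Without A129-6 replicate 3 limma also called 0 of 263 hairpins, with 68 at an unadjusted p under 0.05. Among those 68 were miR-292a (unadjusted p = 0.0294, limma adjusted p = 0.143) and miR-292b (unadjusted p = 0.0186, limma adjusted p = 0.114).

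In round spermatids the 6 arms together had 11, 921 and 64 counts in replicates 1, 2 and 3, which is 0.00451%, 0.593% and 0.0384% of the libraries. miR-292a-5p had 3, 300 and 29 counts (0.00123%, 0.193% and 0.0174%, exact 95% intervals 0.000254% to 0.00360%, 0.172% to 0.216% and 0.0117% to 0.0250%). miR-293-5p had 4, 220 and 7 counts (0.00164%, 0.142% and 0.00420%). miR-292b-5p had 0 counts in replicates 1 and 3 and 9 in replicate 2. For the 0 counts the 3-count floor, which is not an exact interval, was 0.00123% and 0.00180% of the library. Replicate 2 was the highest RS library for every arm, and no ESC library was below an RS library for any arm. The groups came closest for miR-293-5p, at 0.143% in A129-6 replicate 3 and 0.142% in RS replicate 2.

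All 6 arms were higher in the haploid lines and in R1 than in spermatids by edgeR's test on all 12 libraries, where 65.4% and 53.0% of features were called, 44.5% and 33.6% higher. The 2 comparisons share the RS libraries. For R1 the log2 difference from spermatids ran from 8.44 for miR-292a-3p to 8.82 for miR-293-3p, leaving out miR-292b-5p. For the haploid lines it was 11.4 for miR-292a-5p, 10.9 for miR-292b-3p, 9.61 for miR-292a-3p and 8.42 for miR-293-3p. The fitted values of miR-292b-5p, 8.36 and 9.15, rest on 9 counts in a single RS library. miR-293-5p had the smallest, 4.23 (SE 0.87, edgeR adjusted p = 0.000163). For the other 12 cluster arms 11 were called higher in each comparison. Total-count scaling lowered the miR-293-5p difference to 2.26 (edgeR adjusted p = 0.0202). The TMM factors of the fit were 1.89 to 2.63 in RS, 0.470 to 1.03 in the haploid and 1.31 in both R1 libraries. TMM scaling thus raised the differences of all 6 arms from spermatids above those by total counts, not only that of miR-293-5p. The log2 differences with TMM scaling were all higher without RS replicate 2, which held most of the counts. For the haploid lines they were then 8.21 for miR-293-5p, 12.5 for miR-292a-3p, 12.7 for miR-293-3p, 13.6 for miR-292b-3p and 14.3 for miR-292a-5p, and for R1 they ran from 12.0 for miR-292b-3p to 13.9 for miR-293-3p. miR-292b-5p was at 0 in both remaining RS libraries, so no fold is given for it there.

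Arm use in spermatids was measured most precisely in replicate 2. For miR-293 the 5p and 3p arms had 4 and 1 counts in replicate 1, 220 and 193 in replicate 2, and 7 and 7 in replicate 3. Its 5p arm made up 80%, 53.3% and 50.0% (exact 95% intervals 28.4% to 99.5%, 48.3% to 58.2% and 23.0% to 77.0%). All 3 intervals lie above the haploid range of 3.91% to 8.17%. For miR-292a the arms had 3 and 2, 300 and 88, and 29 and 8 counts, or 60%, 77.3% and 78.4% of 5p (14.7% to 94.7%, 72.8% to 81.4% and 61.8% to 90.2%). For miR-292b they had 0 and 1, 9 and 111, and 0 and 13 counts, with 7.50% of 5p in replicate 2 (3.49% to 13.8%). The 3 hairpins had fewer than 10 counts in at least 1 RS library and did not enter the limma test of arm ratios, in which 59.8% of 122 hairpins passed between haploid lines and spermatids and 38.5% between R1 and spermatids. The proportions of the cluster arms in RS replicate 2 differed by 4.39 percentage points from the R1 mean and by 43.6 from the haploid mean. RS replicate 3 differed by 25.8 and 26.2, and RS replicate 1, with 24 cluster counts, by 44.6 and 69.3. Where the counts of these arms in the RS libraries came from was not tested.

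Features with the most similar pattern were sought over the 9 ESC libraries, among 499 with a mean of at least 10 CPM in an ESC group, by Pearson's r of log2 normalised CPM. The libraries fall into an R1 and a haploid cluster and share their depth and scaling, so the values are descriptions. miR-293-5p was closest to miR-18b-5p (0.998), miR-291a-3p of the same cluster (0.998) and miR-708-3p (0.997). miR-293-3p was closest to miR-23b-3p (0.985), miR-350-3p (0.982) and miR-154-5p (0.972). miR-292b-3p was closest to miR-320-3p (0.991), miR-501-3p (0.984) and miR-423-5p (0.983), and miR-292a-5p to miR-673-3p (0.975), miR-3057-5p (0.973) and miR-3070-5p (0.972). The arms that overlapped between groups had weaker neighbours: miR-365-2-5p (0.822), miR-30d-5p (0.773) and miR-412-5p (0.771) for miR-292a-3p, and miR-339-5p (0.799), miR-199a-5p (0.765) and miR-331-3p (0.761) for miR-292b-5p. No neighbour was itself another of the 6 arms, since these were left out of the search.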

How the data were processed

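The deposited table held raw counts of reads per miRNA, which the authors had not normalised. Library preparation, per the labels' protocols, joined adapters to both RNA ends, amplified the product by PCR and sized it on a gel. Per the submitters' processing notes, Bowtie 0.12.9 and DESeq2 were used, with no role named. The sources used here do not give the genome build, miRBase release, use of strand or handling of reads with several matches. All 12 columns were matched to samples by name, and groups were taken from the cell line labels.

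Counts were tested in R 4.3.3 with edgeR 4.0.16 (filterByExpr, minimum count 10 and minimum total 15, TMM, quasi-likelihood F-test). The 9 ESC libraries were fitted for comparisons among ESC and all 12 for those with spermatids, with the 3 haploid lines weighted equally. Shares within the cluster used the summed count of its 18 arms as library size. Arm ratios, log2 of (5p + 0.5)/(3p + 0.5), were tested with limma 3.58.1 for 263 of 473 hairpins with both arms named. Adjusted p-values are Benjamini-Hochberg over all features or hairpins tested, two-sided, with a threshold of 0.05. DESeq2 1.42.0, other scalings, filters, pseudocounts, a GC term and leaving out libraries were alternatives. The fitting steps were tested on simulated data. The members, lists and tests were chosen with earlier results of these data known. Named features were all 6 arms, the 3 most abundant other cluster arms, the cluster hairpins and the 3 features most correlated with each arm.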

Additional observations from a re-analysis of the deposited data

How the results depend on the processing

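Over 20 or 21 alternatives per arm, the haploid against R1 calls and directions of miR-292a-5p (log2 1.59 to 2.69), miR-292b-3p (1.35 to 2.45) and miR-293-5p (-5.52 to -3.24) were kept. The arm ratio calls of the 3 hairpins were kept over 15 alternatives for miR-292a and 16 for miR-292b and miR-293. miR-293-3p lost its call with all 12 libraries in the fit (-0.40), and miR-292a-3p gained one with a minimum count of 100 (0.71). The count of features called between haploid lines was 29, and it was 0 with total-count scaling, 82 with no filter, 4 with a minimum count of 100, 85 with DESeq2, 2 with all 12 libraries in the fit and 0 to 80 with 1 library left out: 9 and 6 without A129-2 replicate 1 or 2, 0 without A129-6 replicate 1 or 2, 80 without A129-6 replicate 3 and 44 without A129-17 replicate 2. For cluster shares between lines 0 features were called, against 6 with a minimum count of 100, 25 with no filter and 0 to 155 with 1 library left out. The 140 arm ratios called against R1 became 66 to 145 with 1 library left out, lowest without R1 replicate 1 (66) or 2 (82), and the 0 called between lines became 0 to 1. For arm ratios against spermatids, in which none of the 3 hairpins was tested, 73 hairpins were called for the haploid lines (30 with a minimum of 100 counts, 242 with none) and 47 for R1 (78 with a pseudocount of 5, 23 with a minimum of 100, 146 with none, 25 to 50 with 1 library left out). The cause of these shifts was not tested. As deviations from the group mean, same-numbered replicates of different groups correlated from -0.521 to 0.201. Of the 9 ESC libraries, 3 correlated best with their own number. In groups of 2 libraries the deviations mirror each other, so these values cannot decide whether the numbers pair the samples. With a replicate block 72 features were called between lines, none of the 6 arms, and 103 for cluster shares, among them miR-293-3p (adjusted p = 0.0160) and miR-293-5p (0.0385). The spermatid libraries, with 155232 to 243714 counts, limit the comparisons with them.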
